A study of Drosophila melanogaster with 2 samples.

Results

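The cytosolic ribosomal protein genes of Drosophila melanogaster were described in peak lists from chromatin immunoprecipitation and sequencing (ChIP-seq) of fd102C, a protein with a fork head DNA-binding domain. The genes were taken by symbol from the protein-coding genes of the Ensembl annotation. A gene was kept when its symbol began with RpL or RpS followed by a digit or the letter A, or with RpLP, and sta was added, while mitochondrial ribosomal protein genes were left out. This gave 93 genes of 13945 protein-coding genes on the 6 chromosome arms. By symbol alone, 39 were assigned to the small (40S) subunit and 54 to the large (60S) subunit. RpS2, also known as string of pearls, is among the 93, and 5 of the symbols end in -like. Whether the products of these 5 genes are parts of a subunit was not examined. The gene set was selected on results from these same lists, in which it had stood out for promoter peaks, so all counts of its peaks are descriptions and no test was applied to them.

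The samples were whole embryos of both sexes, 2 to 6 h old by their source description, from a transgenic line that stably expressed fd102C with GFP joined to its C-terminal end. There was 1 group with 2 biological replicates, both of the line fd102C-GFP, and thus no contrast between conditions. Whole embryos mix all cell types of the stage, and the labels give neither the promoter that drives the transgene nor whether the native fd102C gene was intact. Both samples were described in their labels as input control, while their titles, assay and antibody fields named ChIP of a transcription factor, and they were treated as ChIP. No control library was analysed here, and the labels call the replicates biological without saying how they were collected. Peaks were deposited in 4 lists. The thresholded list held 2031 peaks with signal values of 126 to 2068, and these were the 2031 highest of the 30000 pooled peaks, whose signal reached down to 38.5. Each replicate also had its own list of 30000 peaks, with signal values of 25.5 to 1230.2 in replicate 1 and of 18.2 to 854 in replicate 2. Signal is the value of the authors' peak caller, and its scale is not stated, so it was used for rank within a list, where rank 1 has the highest signal.

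Ribosomal proteins bind ribosomal RNA to form the subunits of the ribosome, the particle that makes protein in every cell. Their genes are transcribed at a high rate, and loss of 1 copy of many of them gives the Minute phenotype of slow growth and thin bristles. Many of their promoters carry a polypyrimidine initiator (TCT), a run of C and T at the start of transcription in place of the usual initiator. Factors known at these promoters in Drosophila are Trf2, a relative of the TATA-binding protein, with Dref, which binds the DNA replication-related element (DRE), and M1BP, which binds the core promoter sequence called motif 1. Fork head proteins bind short sites built on the letters TAAATA or TAAACA.

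The start sites of 9 of the 15 members with the highest peaks are shown, namely those whose sequence may be printed and that hold polypyrimidine initiator letters there, to let the letters be read at a promoter with a peak. Each window holds 30 bases before the transcription start site (TSS) of the canonical transcript and 30 bases from it on, along the strand of the gene. Capitals mark the initiator letters CTTTC or CTTTT nearest the start. Sequence was read from the RefSeq copy of the Release 6 genome, whose coordinates are those of dm6.
RpL24: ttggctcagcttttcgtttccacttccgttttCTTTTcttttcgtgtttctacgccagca
RpL23A: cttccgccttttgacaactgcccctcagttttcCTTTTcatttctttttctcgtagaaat
RpL14: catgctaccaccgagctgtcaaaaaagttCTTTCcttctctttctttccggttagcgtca
RpL30: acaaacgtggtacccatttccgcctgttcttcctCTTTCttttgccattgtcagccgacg
RpL13A: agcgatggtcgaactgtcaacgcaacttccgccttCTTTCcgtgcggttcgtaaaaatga
RpS25: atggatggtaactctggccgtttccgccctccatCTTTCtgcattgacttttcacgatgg
RpL13: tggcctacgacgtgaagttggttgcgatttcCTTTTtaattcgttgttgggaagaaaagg
RpL4: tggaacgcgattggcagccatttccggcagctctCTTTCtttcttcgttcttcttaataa
RpL22: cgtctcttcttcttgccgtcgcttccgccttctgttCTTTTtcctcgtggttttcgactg

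In these 9 windows the C that begins the capitals lay between 1 base before the TSS and 6 bases after it. RpL24 at chr2L:13395063-13395122, RpL30 at chr2L:19009208-19009267, RpL23A at chr3L:1668625-1668684, RpS25 at chr3R:11216258-11216317 and RpL22 at chrX:765101-765160 are on the minus strand. RpL14 at chr3L:8600976-8601035, RpL13A at chr3R:5624444-5624503, RpL13 at chr2L:9967300-9967359 and RpL4 at chr3R:27922791-27922850 are on the plus strand. With a C within 3 bases of any annotated TSS, the letters were at 29 of the 93 members (31.2%), compared with 3.01% of all protein-coding genes. The window was then widened, after the data had been seen, to a C from 3 bases before to 20 bases after a TSS. The letters were then at 82 members (88.2%), compared with 10.7% of all protein-coding genes. Both subunits had them, with 32 of 39 small subunit genes (82.1%) and 50 of 54 large subunit genes (92.6%).

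The letters did not mark every member with a peak, and most other genes that had them had no thresholded summit. Of the 54 members with a thresholded summit within 1 kb, 52 (96.3%) had the letters in the wider window, as had 30 of the 39 members without one (76.9%). The 2 members with a summit and without the letters were RpS20 and RpS2. The others without them were sta, RpLP0-like, RpL12, RpL24-like, RpS19b, RpL10Aa, RpS10a, RpS15Ab and RpS28-like. Among 1414 other protein-coding genes with the letters, 178 (12.6%) had a thresholded summit within 1 kb. No match says only that these letters are not in this window.

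A thresholded summit lay within 1 kb of a TSS of 54 of the 93 ribosomal protein genes (58.1%). Of all protein-coding genes, 9.08% had one. In the longer pooled list 87 members had a summit (93.5%), where 58.6% of all protein-coding genes had one. The full lists of the replicates held a summit at 89 members (95.7%) in replicate 1 and at 88 (94.6%) in replicate 2, with 57.4% and 58.6% of all protein-coding genes. When each replicate list was cut to its 2031 highest peaks, 51 members (54.8%) had a summit in replicate 1, where the share of all protein-coding genes was 8.99%. In replicate 2 there were 59 (63.4%), against 9.61%. Since the genes were chosen for these counts, the distance to the background shares is not evidence in itself. The 5 genes with symbols ending in -like had no thresholded summit, so 54 of the 88 others (61.4%) had one. All distances below are to the nearest annotated TSS of the gene, which need not be the canonical TSS of the printed windows. At RpL30, RpS4 and RpLP0, among others, the direction reverses when taken from the canonical TSS.

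**Figure D1:**
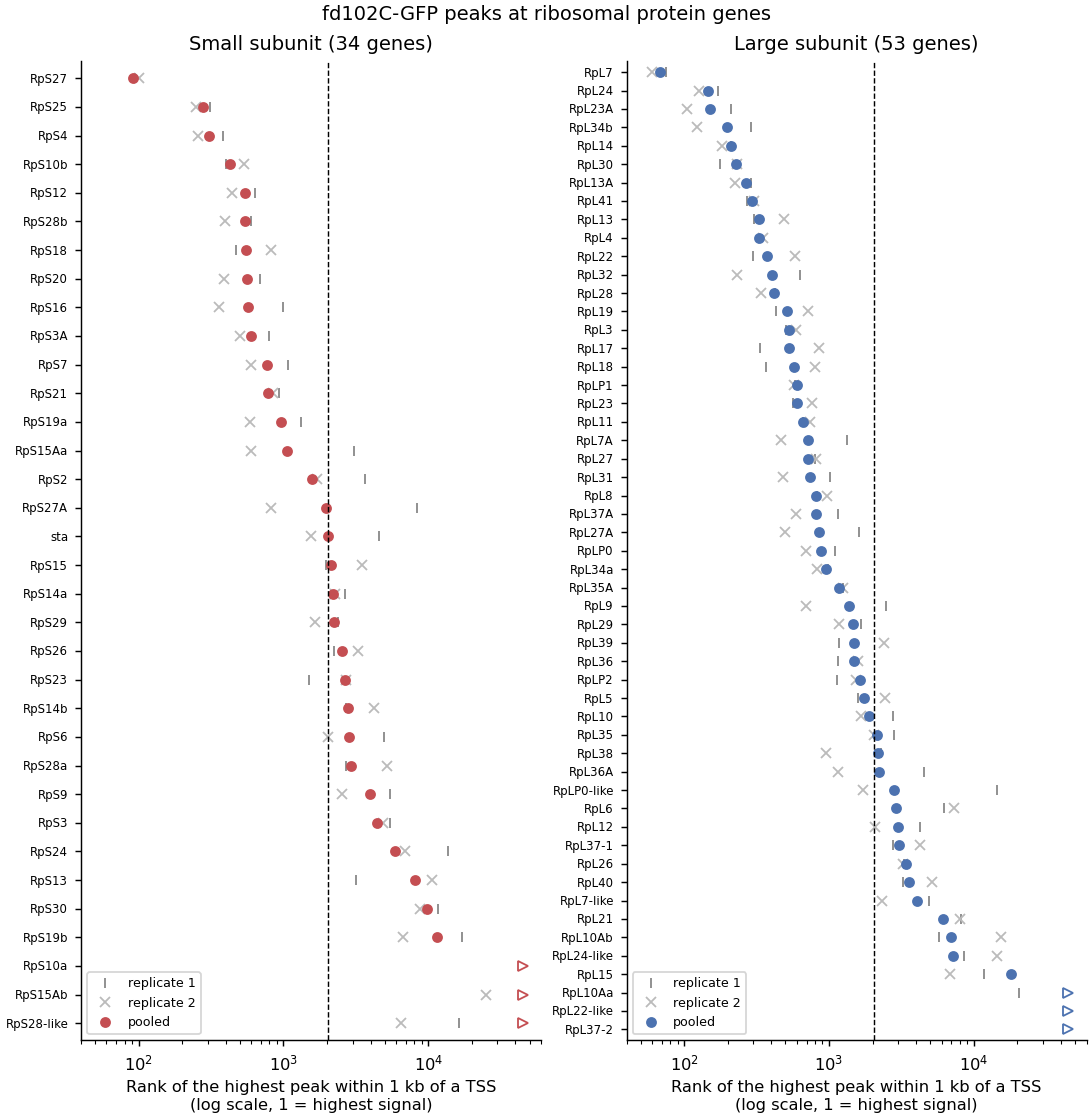
Rank of the highest peak within 1 kb of a TSS (log axis, rank 1 has the highest signal) for 34 small and 53 large subunit genes, in the pooled list (filled circles) and in the lists of replicate 1 (bars) and replicate 2 (crosses). The dashed line is rank 2031, where the thresholded list ends, and open triangles mark the 6 genes with no pooled peak; large subunit genes reach rank 68 and small subunit genes rank 92.

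Among the small subunit genes, 17 of 39 (43.6%) had a thresholded summit, and 36 (92.3%) had a pooled one. Those named here were, in order of signal, RpS27, RpS25, RpS4, RpS10b, RpS12, RpS28b, RpS18, RpS20, RpS16, RpS3A, RpS7, RpS21, RpS19a, RpS15Aa, RpS2 and RpS27A. The ranks of the 17 ran from 92 to 1983, with a median of 573. The 22 small subunit genes without a thresholded summit included sta, RpS15, RpS14a, RpS29, RpS26, RpS23, RpS14b, RpS6, RpS28a, RpS9, RpS3, RpS24, RpS13, RpS30, RpS19b, RpS10a, RpS15Ab and RpS28-like. RpS6, the substrate of S6 kinase, ranked 2823 in the pooled list with its summit 464 bp upstream. The same peak was also the highest within 1 kb of a TSS of bys, a ribosome biogenesis gene.

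The highest small subunit peak was at RpS27, which encodes a zinc finger protein of the 40S subunit. Its summit lay 2 bp upstream of the TSS and had a signal of 506 in the pooled list (rank 92), 293 in replicate 1 (rank 95) and 212 in replicate 2 (rank 101). RpS25 followed with a pooled signal of 336 (rank 280) and its summit 21 bp upstream, and it ranked 311 in replicate 1 and 249 in replicate 2. RpS4 had a pooled signal of 323 (rank 306) and its summit 20 bp upstream, with ranks of 385 and 256 in the replicates. These 3 genes were well inside the 2031 highest peaks of every list. RpS3A, the only member on chromosome 4, had its summit exactly at the TSS, with pooled rank 599.

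Large subunit genes had a thresholded summit at 37 of 54 genes (68.5%) and a pooled one at 51 (94.4%). Those named here were, in order of signal, RpL7, RpL24, RpL23A, RpL34b, RpL14, RpL30, RpL13A, RpL41, RpL13, RpL4, RpL22, RpL32, RpL28, RpL19, RpL3, RpL17, RpL18, RpLP1, RpL23, RpL11, RpL7A, RpL27, RpL31, RpL8, RpL37A, RpL27A, RpLP0, RpL34a, RpL35A, RpL9, RpL29, RpL39, RpL36, RpLP2, RpL5 and RpL10. The ranks of the 37 ran from 68 to 1903, with a median of 604. The 17 without one were RpL35, RpL38, RpL36A, RpLP0-like, RpL6, RpL12, RpL37-1, RpL26, RpL40, RpL7-like, RpL21, RpL10Ab, RpL24-like, RpL15, RpL10Aa, RpL22-like and RpL37-2. The share with a thresholded summit was higher in the large than in the small subunit in the pooled data and in each replicate. Among the 2031 highest peaks of replicate 1 it was 35 of 54 (64.8%) against 16 of 39 (41.0%), and in replicate 2 it was 38 (70.4%) against 21 (53.8%). Genes are not replicates of a subunit, so the difference was not tested. In the pooled list, where the shares were 94.4% and 92.3%, the subunits differed in rank, with medians of 811 for large and 2086 for small subunit genes that had a peak.

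RpL7 had the highest peak of all members. Its summit lay 39 bp downstream of the TSS at chr2L:10201043-10201043, with a signal of 575 in the pooled list (rank 68), 310.3 in replicate 1 (rank 75) and 259 in replicate 2 (rank 60). RpL24 had a pooled signal of 433 (rank 146) and its summit 8 bp upstream, with 229.8 in replicate 1 (rank 170) and 200.3 in replicate 2 (rank 127). RpL23A, at the mouth of the tunnel through which the new protein leaves the ribosome, had a pooled signal of 427 (rank 151) and its summit 42 bp upstream, with 213 (rank 211) and 211 (rank 104) in the replicates. RpL7 ranked before the other 92 members in each list.

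The next large subunit genes ranked between 196 and 372 in the pooled list. RpL34b had a signal of 384 with its summit 102 bp upstream, the farthest of the 15 highest, and ranked 288 in replicate 1 and 122 in replicate 2. RpL14 (signal 373, 3 bp upstream) ranked 209 and 183 in the replicates, and RpL30 (signal 362, 29 bp downstream) ranked 176 and 232. A further thresholded summit within 1 kb was present at 3 members, among them RpL34b, with rank 662 at 910 bp downstream, and RpS28b, with rank 1002 at 758 bp upstream. The further summit at RpL34b lies beyond the 3' end of the gene. Whether such summits belong to neighbouring genes was not examined. RpL13A (signal 339.7, 39 bp upstream) ranked 289 and 223. RpL41, which encodes a very short, basic protein, had a signal of 329 with its summit 49 bp upstream and ranked 273 and 304. RpL13 and RpL4, a protein of the exit tunnel wall, had the same rounded signal of 314 and pooled ranks of 328 and 329. RpL13 ranked 304 in replicate 1 and 485 in replicate 2, and RpL4 ranked 330 and 350. RpL22 (signal 295, 43 bp upstream) ranked 297 and 585. All of these had a rank under 600 in both replicates.

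Proteins with well known roles were found on both sides of the threshold. RpLP0, RpLP1 and RpLP2, which form the stalk that recruits translation factors, each had a thresholded summit. RpL5 and RpL11, which join the 5S ribosomal RNA in 1 particle, had one too. RpL32, a common reference gene for RNA measurements in Drosophila, ranked 405 with its summit 103 bp upstream. RpS27A and RpL40, which are made as fusions with ubiquitin, fell on opposite sides, at pooled ranks 1983 and 3548.

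The threshold cut through a run of members with similar signal. The lowest members inside it were RpS2 (rank 1584, signal 143), RpLP2 (rank 1628, signal 141), RpL5 (rank 1744, signal 136), RpL10 (rank 1903, signal 129.8) and RpS27A (rank 1983, signal 127). The nearest outside were sta (rank 2045, signal 125), RpS15 (rank 2126, signal 123), RpL35 (rank 2147, signal 122), RpL38 (rank 2164, signal 122) and RpL36A (rank 2200, signal 121). In sta, which encodes the protein known in mammals as the laminin receptor precursor, the summit lay 8 bp upstream, with rank 4601 in replicate 1 and 1542 in replicate 2. In all, 16 members ranked after 2031 and up to 3000, another 7 up to 5000, another 7 up to 10000, and 3 beyond that, RpS19b and RpL15 among them. The 6 without any pooled summit were RpL10Aa, RpL22-like, RpL37-2, RpS10a, RpS15Ab and RpS28-like, each of them in a paralogue family formed by symbol.

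Within the thresholded list, the members stood in the upper part. Of 54 members, 18 (33.3%) had their highest peak at ranks 1 to 507, 25 (46.3%) at ranks 508 to 1015, 6 (11.1%) at ranks 1016 to 1523 and 5 (9.26%) at ranks 1524 to 2031. Among the 1212 other protein-coding genes with a thresholded summit the shares were 22.2%, 25.7%, 26.4% and 25.7%. The median rank was 586 for members and 1054 for the other genes. In the pooled list the medians were 1059 for 87 members and 7946 for 8082 other genes.

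The summits at ribosomal protein genes lay very near the TSS. The median distance from the nearest TSS of the gene to the highest thresholded summit was 27.5 bp, and the range was 0 to 155 bp. At the 1212 other genes the median was 152 bp. From the canonical TSS alone the members' median was 34 bp, and some summits, such as those of RpS16 and RpLP0, lay more than 155 bp away. Within 50 bp lay 46 of the 54 members (85.2%) and 14.6% of the other genes, and within 100 bp lay 50 (92.6%) and 30.7%. The other genes within 50 bp included eEF1alpha1, eEF1gamma, eEF2 and eEF5, which encode translation factors, so such near summits are not particular to the members. Most eIF genes with a thresholded summit had it farther away. Members and other genes were not counted alike. At none of the 54 members was another gene's TSS nearer to the summit, while the other genes were counted even where one was. They include neighbours that share a member's peak, such as Dref at RpL13. By summit instead of gene, 356 of the 925 other thresholded summits within 1 kb of a protein-coding TSS were within 100 bp of one. Counted over all genes of each set, 53.8% of the 93 members had a thresholded summit within 100 bp of a TSS, against 3.19% of all protein-coding genes. In the pooled list this was 81.7%, against 22.0%.

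**Figure D2:**
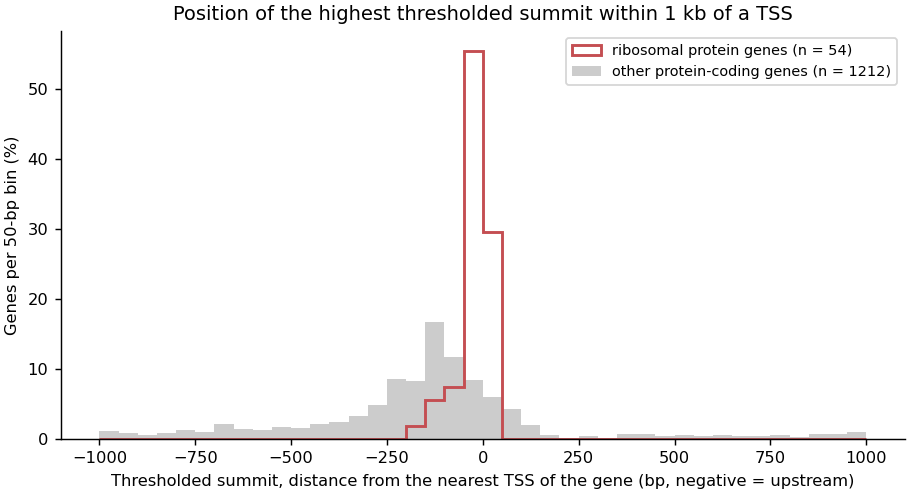
Signed distance in bp from the TSS to the highest thresholded summit within 1 kb, negative upstream, in bins of 50 bp, as a percentage of 54 ribosomal protein genes (red line) and of 1212 other protein-coding genes (grey). Most ribosomal protein genes fall within 50 bp of the TSS, while the other genes are spread mainly over the 300 bp upstream. The other genes are counted also where another gene's TSS is nearer to the summit.

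The summit was upstream of the TSS at 38 members, downstream at 15 and on it at 1. The signed median was 14.5 bp upstream for all members, 5 bp upstream for the 17 small subunit genes and 20 bp upstream for the 37 large subunit genes. The median absolute distances were 20 bp and 32 bp, with ranges of 0 to 138 bp and 1 to 155 bp, and their difference was not tested. Of the 87 members with a pooled summit, 73 (83.9%) had their highest one within 100 bp, compared with 28.2% of the other genes. These other genes were again counted even where another gene's TSS was nearer.

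Many of these peaks had a neighbouring gene as well. The same share was not counted for other thresholded summits, so the count does not set the members apart. At 38 of the 54 members the summit was also within 1 kb of a TSS of another protein-coding gene, and at none of the 54 was that other TSS the nearer. Among the highest, RpL7 shared its summit with Ripalpha, RpS27 with Nup37, a gene for a nuclear pore protein, RpL14 with Nelf-E, a gene for a subunit of a factor that pauses RNA polymerase II, and RpL34b with CG8132. RpL13 shared its summit with Dref, the gene for the DRE-binding factor, whose TSS was 100 bp from it. Others were RpL13A with Dph4 and Spec2, RpS25 with CG4820, RpL41 with NaCP60E, and RpL4 with BCAS2. The 54 members had 54 different highest peaks, so no peak was counted for more than 1 of them.

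The peaks were found in both replicates. A summit within 100 bp of the member's highest thresholded summit was present at 53 of the 54 members in each replicate, and at 52 in both. RpL34a lacked it in replicate 1 and RpLP2 in replicate 2. The median rank of these summits was 633 in replicate 1, with a range of 75 to 8383, and 585 in replicate 2, with a range of 60 to 2478. They were among the 2031 highest peaks at 48 members in replicate 1 and at 51 in replicate 2. Since the thresholded list was made with both replicates, this is a description of the list. Neither these counts nor the agreement of ranks below was taken over all 2031 thresholded peaks, so they do not set the members apart.

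**Figure D3:**
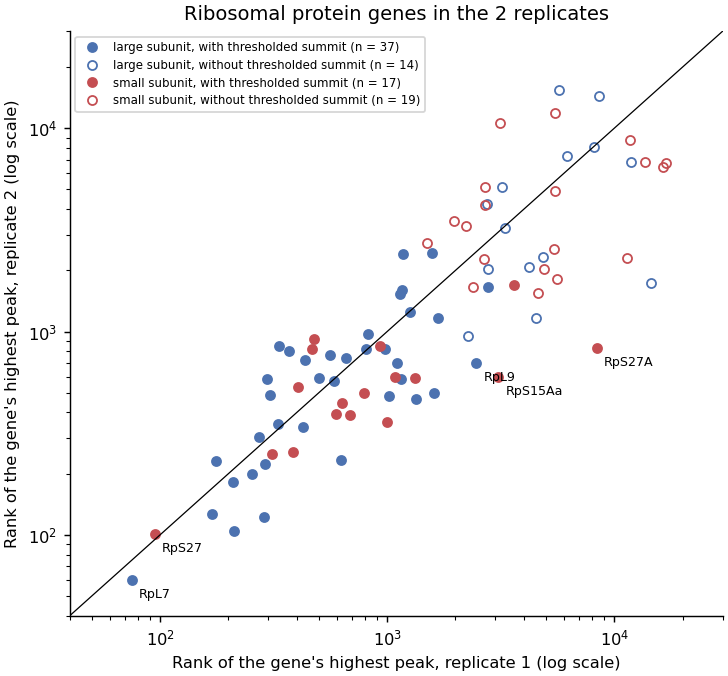
Rank of each gene's highest peak within 1 kb of a TSS in replicate 1 (horizontal, log axis) against replicate 2 (vertical, log axis), for large (blue) and small (red) subunit genes with (filled) and without (open) a thresholded summit; the line marks equal ranks. RpL7 and RpS27 lie at the high end in both replicates, while RpS27A lies far from the line, at rank 8383 in replicate 1 and 827 in replicate 2.

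Agreement of rank varied between genes. Ranks were within 2 times of each other at 37 of the 52 members found in both replicates. The rank was better in replicate 2 at 32 of them and in replicate 1 at 20. At 4 members the ranks of these summits were more than 3 times apart, and each of these ranked higher in replicate 2. They were RpS27A (8383 in replicate 1, 827 in replicate 2), RpS15Aa (3086 and 600), RpL9 (3564 and 699) and RpL27A (1610 and 500). Of the members with a thresholded summit, RpL10, RpL9, RpS15Aa, RpS2 and RpS27A had none among the 2031 highest peaks of replicate 1, and RpL39 and RpL5 had none among those of replicate 2. Replicate 1 added RpS15 and RpS23, and replicate 2 added 7, among them RpL36A, RpL38, RpLP0-like, RpS29, RpS6 and sta. In all 3 sets were 47 members, and 30 were in none.

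Genes whose symbols share a stem were grouped as paralogue families, and the members of a family often differed in their peaks. The grouping rests on symbols alone, and what the genes ending in -like encode was not examined. There were 13 such families with 27 members, of which 11 members had a thresholded summit. Among the 66 members outside families 43 had one. A single family, RpL34, had a summit at each of its members. In 9 families only some had it, and in 3, RpL10A, RpL37 and RpS14, none did. In each of the 9 it was exactly 1 member.

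**Figure D4:**
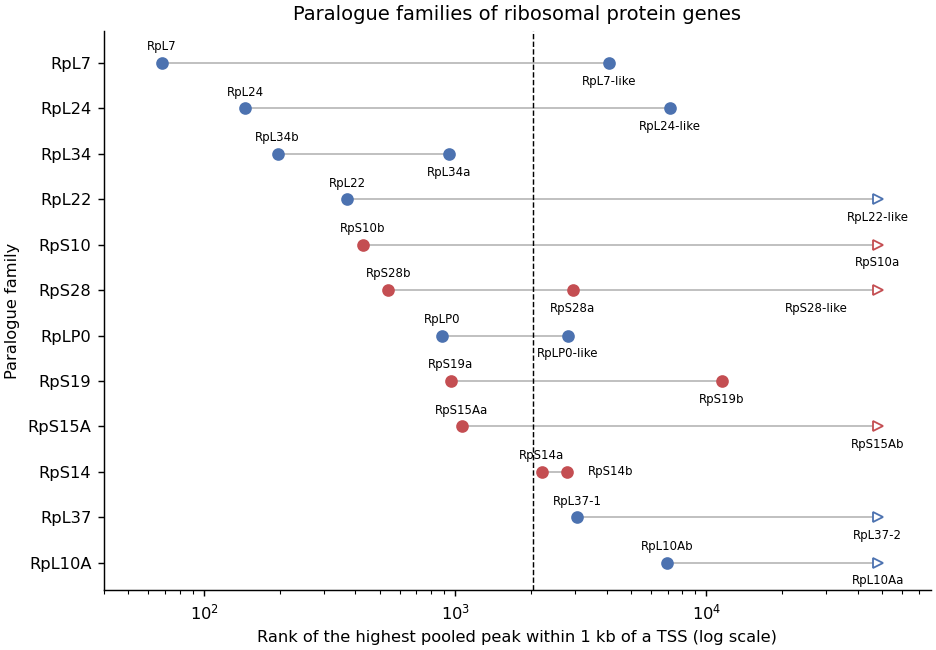
Rank of the highest pooled peak within 1 kb of a TSS (log axis) for 25 genes of 12 paralogue families, with large subunit genes in blue and small subunit genes in red. The dashed line is rank 2031, where the thresholded list ends, and open triangles mark the 6 genes with no pooled peak; RpL34 is the only family with every member left of the line.

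The start sites of the split families whose genes may be shown are printed to let the member with a summit be compared with the one without. Windows and capitals are as above, and a window with no capitals has no CTTTC or CTTTT with its C from 3 bases before to 20 bases after this TSS. RpL24 was printed above.
RpL24-like: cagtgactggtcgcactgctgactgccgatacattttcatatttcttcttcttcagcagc
RpL7: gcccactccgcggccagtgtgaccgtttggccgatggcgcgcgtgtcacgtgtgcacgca
RpL7-like: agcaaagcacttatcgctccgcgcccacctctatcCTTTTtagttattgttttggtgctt
RpS10b: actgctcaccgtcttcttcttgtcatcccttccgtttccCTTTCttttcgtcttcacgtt
RpS10a: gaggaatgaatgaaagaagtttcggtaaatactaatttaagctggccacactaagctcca
RpS19a: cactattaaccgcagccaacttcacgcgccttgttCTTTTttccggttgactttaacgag
RpS19b: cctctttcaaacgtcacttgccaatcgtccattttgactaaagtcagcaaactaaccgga
RpS28b: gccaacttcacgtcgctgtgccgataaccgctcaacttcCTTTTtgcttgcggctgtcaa
RpS28a: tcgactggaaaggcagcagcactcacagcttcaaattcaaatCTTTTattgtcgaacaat
RpS28-like: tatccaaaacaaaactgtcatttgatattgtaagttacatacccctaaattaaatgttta

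RpL7 at chr2L:10200974-10201033 (plus strand) has no capitals here, since its initiator letters lie at its other annotated TSS. RpL24-like is at chr3R:11431553-11431612 (minus strand), RpL7-like at chr2L:12056318-12056377 (plus), RpS10b at chrX:19598010-19598069 (plus), RpS10a at chr3R:27652730-27652789 (plus), RpS19a at chrX:16637864-16637923 (plus) and RpS19b at chr3R:23933501-23933560 (minus). RpS28b is at chrX:9554593-9554652 (plus), RpS28a at chr3R:30022619-30022678 (minus), and RpS28-like at chr2L:9436774-9436833 (plus). The letters were present at RpL24, RpS10b, RpS19a and RpS28b, which had a thresholded summit, and absent from RpL24-like, RpS10a, RpS19b and RpS28-like, which had none. RpL7-like and RpS28a had the letters without a thresholded summit, as had RpL22-like, whose window is not printed. Over the 9 split families, all 9 members with a thresholded summit had the letters at any of their TSSs, and so had 4 of the 10 without. The chances of a match were not equal, since most of those with a summit have several annotated TSSs and most of those without have only 1. RpL7 and RpLP0 had the letters only away from the canonical TSS.

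The widest gaps were in families in which the second member had no pooled peak. RpL22 had pooled rank 372, while RpL22-like, whose expression is known to be enriched in the germ line, had no summit in the pooled list or in either replicate. RpS10b had a signal of 280.0 (rank 429) with its summit 17 bp upstream and ranked 404 and 532 in the replicates, while RpS10a, also known for expression in the germ line, had none in any list. RpS15Aa had a signal of 177 (rank 1059) with its summit 1 bp upstream. RpS15Ab had no pooled summit, and its only peak was in replicate 2 at rank 24880.

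In RpS19 the second copy had a distant, low pooled peak. RpS19a had a signal of 188 (rank 959) with its summit 8 bp downstream, and ranked 1326 in replicate 1 and 592 in replicate 2. RpS19b, whose expression is likewise known from the germ line, had a signal of 57.3 (rank 11507) at 881 bp upstream. Its highest peak in replicate 2 (rank 6729) lay 926 bp upstream, while that in replicate 1 (rank 16968) was another one, 109 bp upstream.

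RpS28 is the only family with 3 members. RpS28b had a signal of 252 (rank 541) with its summit 31 bp upstream. RpS28a had 104 (rank 2941) at 126 bp upstream, and RpS28-like had no pooled summit. The highest peak at RpS28a was 65 bp upstream in replicate 1 (rank 2703) and 55 bp downstream in replicate 2 (rank 5160). In replicate 1 the highest peak within 1 kb of RpS28b, at rank 597, was 802 bp upstream, and the one at the pooled summit had rank 766.

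In the large subunit, RpL7-like had a signal of 88.7 (rank 4078) at 366 bp upstream, and RpL24-like had 69.6 (rank 7147) at 67 bp upstream. RpLP0 had a signal of 194 (rank 886) with its summit 50 bp upstream, and RpLP0-like had 107 (rank 2800) at 100 bp upstream. RpLP0-like ranked 14544 in replicate 1 and 1727 in replicate 2, so this family had a summit at every member among the 2031 highest peaks of replicate 2. In RpL34, RpL34a had a signal of 188 (rank 948) with its summit 25 bp upstream and ranked 823 in replicate 2, against pooled rank 196 at RpL34b. Its highest peak in replicate 1 (rank 977) lay elsewhere, 133 bp upstream.

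Of the 3 families with no thresholded summit, RpS14 is a tandem pair on the X chromosome whose TSSs are 1156 bp apart. RpS14a had a signal of 120.4 (rank 2209) at 2 bp downstream, and RpS14b had 107 (rank 2785) at 92 bp downstream. Both were just outside the threshold, with ranks of 2659 and 2278 for RpS14a and of 2705 and 4216 for RpS14b in the replicates. RpL37-1 had a signal of 102 (rank 3064) at 16 bp downstream and RpL37-2 had no summit in any list. RpL10Ab had a signal of 70.2 (rank 6992) at 226 bp upstream, and RpL10Aa had no summit in the pooled list or in replicate 2 and rank 20360 in replicate 1. No member of these 3 families reached the thresholded list.

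The windows around 3 summits are printed because each is that of the highest member, among those whose sequence may be shown, with 1 of the sets of letters searched. Capitals mark motif 1 at RpL7, the fork head letters at RpL34b and the DRE at RpS25. The windows run from 100 bases before to 100 bases after the summit, but not beyond 50 bases into the transcript.
RpL7: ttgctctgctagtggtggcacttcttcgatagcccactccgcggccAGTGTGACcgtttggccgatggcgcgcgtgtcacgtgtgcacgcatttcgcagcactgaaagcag
RpL34b: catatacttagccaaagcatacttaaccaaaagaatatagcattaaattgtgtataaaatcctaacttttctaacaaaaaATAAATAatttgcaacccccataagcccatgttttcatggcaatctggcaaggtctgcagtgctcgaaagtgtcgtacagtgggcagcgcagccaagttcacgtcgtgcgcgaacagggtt
RpS25: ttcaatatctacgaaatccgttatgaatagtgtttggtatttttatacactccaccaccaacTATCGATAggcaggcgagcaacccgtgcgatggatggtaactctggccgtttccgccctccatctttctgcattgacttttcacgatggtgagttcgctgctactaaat

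These are chr2L:10200943-10201053 on the plus strand for RpL7, chr3R:9401228-9401428 on the minus strand for RpL34b and chr3R:11216238-11216408 on the minus strand for RpS25. The capitals at RpL7 are motif 1 read from the opposite strand, centred 50 bp from the summit. The fork head letters at RpL34b were centred 17 bp from the summit, and the DRE at RpS25 35 bp from it.

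Letters were searched on both strands within 100 bp of each summit. The fork head letters were ATAAATA, with A or G allowed at the first and T or C at the sixth position. They were at 13 of the 54 highest summits of members (24.1%), at 43.1% of all 2031 thresholded summits and at 34.0% of the 356 other thresholded summits within 100 bp of a protein-coding TSS. The members were RpL34b, RpS18, RpL18, RpL11, RpL7A, RpS21, RpL37A, RpL34a, RpL29, RpLP2, RpL5, RpL10 and RpS27A. RpL34b was the only one of these among the 15 highest peaks. Within 50 bp of the summit the letters were at 3 members (5.56%), where 28.1% of all thresholded summits had them. Within 250 bp they were at 29 (53.7%), against 66.2%.

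The DRE and the letters CGATA were at a larger share of the members' summits than of both other sets, while motif 1 and ACACTG were near their share among the other summits close to a TSS. The DRE (TATCGATA) was at 12 members (22.2%), compared with 2.90% of all thresholded summits and 8.71% of the others within 100 bp of a TSS. Among these members were RpS25, RpL41, RpL28, RpS10b, RpL19, RpS12, RpL27, RpL34a, RpS15Aa, RpL39 and RpL36. The letters CGATA, bound by BEAF-32 and contained in the DRE, were at 35 members (64.8%), compared with 27.2% and 39.9%. Motif 1 (GTCACACT) was at 5 members, RpL7, RpLP1, RpL37A, RpL27A and RpLP0 (9.26%), compared with 2.12% and 8.15%. The 6-mer ACACTG was at 13 members (24.1%), compared with 18.3% and 21.6%.

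**Figure D5:**
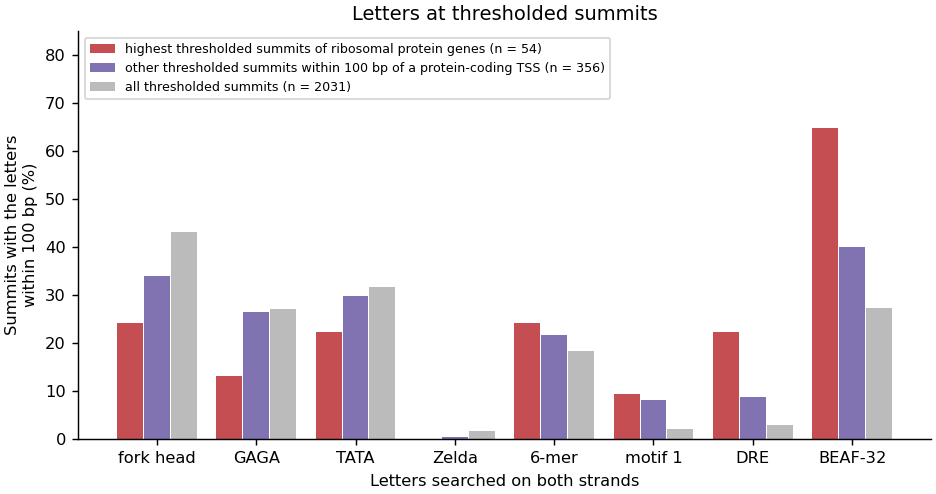
Percentage of summits with each set of letters within 100 bp, for the highest thresholded summits of 54 ribosomal protein genes (red), 356 other thresholded summits within 100 bp of a protein-coding TSS (violet) and all 2031 thresholded summits (grey). The members have the lowest share of fork head letters (24.1%) and the highest of the DRE (22.2%) and BEAF-32 letters (64.8%).

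GAGAG was at a smaller share of the members' summits than of both other sets, and TATAAA differed less. GAGAG, bound by the GAGA factor, was at 7 (13.0%), compared with 27.0% of all thresholded summits and 26.4% of the others near a TSS. TATAAA was at 12 (22.2%), compared with 31.7% and 29.8%. CAGGTAG, bound by Zelda, the activator of the early embryonic genome, was at none of the 54, and at 1.58% and 0.281%. These letters are so rare in the other sets that their absence from 54 summits does not set the members apart. Base composition moved with these counts. The median GC content of the windows was 43.5% at members, 37.3% at all thresholded summits and 41.3% at the others near a TSS, and its part in the shares of A and T-rich letters was not tested.

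The same letters in the 300-base promoters were counted without regard to the peaks, from 250 bases before to 50 after the TSS. The DRE was in 28 of 93 member promoters (30.1%), compared with 10.2% of all protein-coding promoters. It was in 14 of the 54 with a thresholded summit (25.9%) and in 14 of the 39 without (35.9%). Among the 1212 other genes with a thresholded summit the DRE was in 13.2%. CGATA was in 73.1% of member promoters and 53.0% of all, and motif 1 in 12.9% and 7.59%. Fork head letters were in 45.2% and 51.8%, GAGAG in 20.4% and 36.3%, and CAGGTAG in 0 and 2.30%. TATAAA was in 51.6% and 51.2%, and ACACTG in 33.3% and 22.9%. Against the other genes with a thresholded summit, the 54 members with one had fork head letters in 48.1% and 58.7%, GAGAG in 24.1% and 48.3%, and CGATA in 74.1% and 61.9%. For ACACTG these shares were 33.3% and 32.9%, and for motif 1 they were 14.8% and 11.4%.

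Members with a thresholded summit were on all 6 arms. They were 12 of 19 members on 2L, 11 of 21 on 2R, 9 of 14 on 3L, 12 of 23 on 3R, 9 of 15 on X and the only member on chromosome 4. The share of all protein-coding genes with such a summit was between 7.29% on X and 11.2% on chromosome 4.

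Many ribosomal protein genes hold small nucleolar RNA (snoRNA) genes, which guide the modification of ribosomal RNA, in their introns. Inside the span of 29 members lay 76 snoRNA genes on the same strand, and 20 of these 29 had a thresholded summit, as had 34 of the 64 members that hold none. Of 55 other protein-coding genes that hold a snoRNA gene, 15 had one, where the share of all protein-coding genes was 9.08%.

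Genes that serve ribosome assembly were looked at beside the ribosomal proteins. Of 25 ribosome biogenesis genes, 2 had a thresholded summit and 20 a pooled one, where 9.08% and 58.6% of all protein-coding genes had them. These 2 were Ns2, a nucleostemin relative (rank 327, 142 bp upstream), and eIF6, which keeps the subunits apart until the large one is mature (rank 856, 115 bp upstream). Several others lay below the threshold at pooled ranks from 2040 (Polr1B) to 2995 (nop5). The gene Fib, for the rRNA methyltransferase fibrillarin, ranked 3613 in the pooled list. Of 6 genes for factors known at ribosomal protein promoters, Dref, M1BP, Trf2, Myc, TfIIA-L and pzg, all had a pooled summit within 1 kb, as had 58.6% of all protein-coding genes. Dref alone had a thresholded one, which was the peak of RpL13.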

How the data were processed

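Peak lists of fd102C-GFP ChIP-seq in whole embryos, with chromatin sheared by sonication per the labels, were used as the authors deposited them, on assembly dm6. Each deposited list gives, per peak, a signal value of unstated scale, a −log10 q-value and a summit offset. Per the notes deposited with the files, peaks were called by the authors on each replicate and on both pooled, against a control not analysed here. The aligner, caller and threshold are not stated in the labels or file notes. Read counts are absent, so the depth of each sample is unknown. All 4 lists were used, and no columns were left out as belonging to other samples (0 of them).

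Signal was used to rank peaks, and the deposited −log10 q-value broke ties. The deposited p-value field is empty. Genes were given a summit when any TSS in Ensembl release 115 had one at 1 kb or less, and the highest peak of each was described. Distances were taken to the nearest annotated TSS of the gene. Of 13945 protein-coding genes, 13944 had the same span in the RefSeq annotation, all 93 members among them, so sequence was read from the RefSeq genome. Paralogue families were symbols alike after a final a or b, a hyphen and number, or -like was removed. Letters were matched exactly. Values are given in full for the 15 highest and 5 lowest members inside the threshold, the 5 nearest outside, and the paralogues, where named. A few members enter the counts and are not reported here by name. Other genes named are neighbours of the 15, list members, and genes singled out after their values were seen. The members and lists were chosen with earlier results of these data known, so no test was made.

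Alternatives were other TSS windows, peak intervals, the 1016 highest thresholded peaks, each replicate alone, canonical TSSs, no -like genes, other letter windows and other distances for shared summits. The 100 bp TSS window and the wider initiator window were added after the data had been seen. Scripts ran in Python 3.11.15 with numpy 2.4.6, Biopython 1.88 and matplotlib 3.10.9. The code was checked on simulated data, where 200 of 200 summits planted within 1 kb of a TSS were found at their genes. Whether a planted summit was also given to a neighbouring gene was not checked.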

Additional observations from a re-analysis of the deposited data

How the results depend on the processing

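Of 85 alternative values for 18 results, 71 stayed within 1.5 times the reported count or the spread, and 14 did not. The spread is the standard deviation between the replicates, used for the median rank and the median distance. For the distance, the replicate values that set it were also among the alternatives. Leaving out the -like genes could not change the thresholded counts, since none had such a summit. The number that stayed is therefore no measure of robustness. The number of members with a thresholded summit was 43 with the 1016 highest peaks and 56 with a 2 kb window, and 51 to 59 with 1 replicate left out. The large subunit kept the higher share in each of these. The number of paralogue families with a summit at every member was 1 to 2 with 1 replicate left out, since RpLP0 joins in replicate 2 alone, and 0 within 100 bp of a TSS, since RpL34b lies 102 bp away.

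Counts of letters moved with the window, which holds more bases when wider. Within 50 bp of the summit, fork head letters were at 3 members, CGATA at 22, GAGAG at 3 and TATAAA at 5. Within 250 bp, fork head letters were at 29, motif 1 at 8, ACACTG at 24, GAGAG at 19 and TATAAA at 26. Among the 1016 highest peaks, with 43 members, fork head letters were at 8 and TATAAA at 7. The initiator letters went from 29 to 82 members in the wider window. The unknown depth and the absence of a control library here limit what a missing peak can mean, and gene-level counts rest on only 2 replicates.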
